A study of Mus musculus with 23 samples.

Results

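Granule cells are the principal neurons of the dentate gyrus, the entry station of the hippocampus. They receive input from the entorhinal cortex, send their mossy fibers to mossy cells and to CA3 pyramidal cells, and go on being born in the adult rodent. The levels of 10 genes known as markers of these cells were followed in hippocampal mRNA: Prox1, Dsp, C1ql2, C1ql3, Calb1, Tdo2, Lct, Trpc6, Npnt and Plk5. They were picked by symbol as a list of granule cell markers, and all 10 were found among the 51912 gene identifiers of the deposited tables and passed the filter on low values in every comparison.

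The mice were male C57BL/6 wild type animals, and whole hippocampus was sequenced in 23 libraries. Sedentary fathers (4 libraries) had no access to exercise, and exercised fathers (4 libraries) had daily treadmill sessions of 40 minutes for 6 weeks. All fathers were 7 months old. Male offspring formed the groups offspring of sedentary fathers (8 libraries) and offspring of exercised fathers (7 libraries), all 5.5 months old. All groups had been through hippocampus-dependent behavioral tasks before they were killed. Whether every library is another animal, and which offspring shared a father or a litter, is not given in the labels, so p-values measure only the spread between these libraries, which may be partly technical. Offspring titles that match up to their last number are taken here to share a stem. The 8 offspring of sedentary fathers have 8 stems, and the 7 offspring of exercised fathers have 4. These 7 libraries may therefore not be independent.

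Values are the authors' normalized counts, that is read counts divided by a size factor of the library. Reads recovered per library ranged from 33667580 to 55172616. The dissections differed in neighbouring tissue. The summed level of 8 choroid plexus genes ran from 2422 to 204284 normalized counts over the libraries, and sedentary fathers replicates 1 and 2 had 2422 and 8260.1 against 52093 or more in the other 6 fathers. The summed level of 9 genes of the thalamus and habenula was 12429 and 19028 in sedentary fathers replicates 3 and 4, and between 5748 and 7956 in the other 6 fathers. In such bulk tissue, fewer granule cells and less RNA per cell cannot be told apart.

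Prox1 is the homeodomain transcription factor that sets and keeps the fate of granule cells. Calb1 (calbindin) buffers calcium, and Trpc6 is a cation channel opened by diacylglycerol. C1ql2 and C1ql3 are secreted C1q-like proteins which in the mouse gather kainate receptors at mossy fiber synapses, and Npnt (nephronectin) is a matrix ligand of an integrin. Dsp (desmoplakin) ties desmosomes to intermediate filaments. Lct is lactase, Tdo2 (tryptophan dioxygenase) opens the breakdown of tryptophan, and Plk5 is a brain-expressed polo-like kinase family member. Calb1 is also made by CA1 pyramidal cells and many interneurons, and Prox1 by a class of interneurons. Thalamic neurons make both as well, so their RNA in these libraries does not come from granule cells alone.

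The promoters of Prox1, the regulator of granule cell fate, and of Dsp and Npnt, the pair with the highest r over all 23 libraries, are shown as sequence context only. A link between these sequences and the members' joint movement was not tested. Each is a window of 300 bases, from 250 bases before to 50 after a transcript start, from RefSeq on GRCm38.p6, written 5′ to 3′ along the gene. Prox1 is read from chr1:190170778-190171077 (minus strand), Dsp from chr13:38151044-38151343 (plus strand) and Npnt from chr3:132950242-132950541 (minus strand). Capitals mark CAGATG, 1 of the 2 E-box hexamers searched, which are the class of site that basic helix-loop-helix factors of granule cells bind.
Prox1: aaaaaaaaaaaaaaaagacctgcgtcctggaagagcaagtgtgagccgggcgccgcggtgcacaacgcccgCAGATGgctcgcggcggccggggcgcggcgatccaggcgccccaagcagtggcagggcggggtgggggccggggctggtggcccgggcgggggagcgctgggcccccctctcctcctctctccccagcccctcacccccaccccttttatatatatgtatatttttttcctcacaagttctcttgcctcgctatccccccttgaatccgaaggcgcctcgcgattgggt
Dsp: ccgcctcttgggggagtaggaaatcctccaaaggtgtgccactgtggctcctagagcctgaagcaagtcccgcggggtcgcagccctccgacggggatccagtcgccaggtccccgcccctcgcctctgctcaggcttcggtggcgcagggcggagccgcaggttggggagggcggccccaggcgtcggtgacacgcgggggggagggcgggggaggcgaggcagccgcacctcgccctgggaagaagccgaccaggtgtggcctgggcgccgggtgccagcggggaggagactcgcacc
Npnt: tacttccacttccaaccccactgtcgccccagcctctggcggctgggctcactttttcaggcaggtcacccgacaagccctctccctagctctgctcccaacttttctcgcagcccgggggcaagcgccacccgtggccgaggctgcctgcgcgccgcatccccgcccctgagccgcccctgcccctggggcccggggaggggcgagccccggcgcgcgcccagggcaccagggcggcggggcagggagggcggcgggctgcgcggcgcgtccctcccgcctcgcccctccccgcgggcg

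Windows were found for 9 members, some with more than 1 start; no entry was matched for Calb1. CAGCTG, which reads the same on either strand, and CAGATG were searched on both strands, and no run of letters can match both. CAGATG stood once, in the Prox1 window shown, and CAGCTG stood in no member's window. Of 32851 RefSeq windows of the same length, 16.3% held CAGCTG, 17.2% CAGATG and 30.6% either. A match is only a string of letters, and the absence of one says nothing of any factor.

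The members' levels per kilobase of exon spanned a 36.4-fold range. C1ql3 led with 2243 ± 126 normalized counts per kilobase (SD, n = 23 libraries), followed by C1ql2 at 1669.8 ± 213, Calb1 at 985 ± 63.9 and Prox1 at 685 ± 96.6. These 4 genes stood at the 96.1st, 94.2nd, 89.3rd and 84.2nd percentile of all genes tested, whose median was 129. A middle tier held Lct at 332 ± 62.0, Plk5 at 299 ± 35.7, Dsp at 260.0 ± 50.1, Npnt at 232 ± 28.8 and Trpc6 at 175 ± 19.7. Tdo2 was lowest at 61.6 ± 9.10, the 37.5th percentile and below the median gene. In this order the library ranges of neighbours overlapped, except between C1ql2 and Calb1, between Prox1 and Lct and between Trpc6 and Tdo2. The lowest library of C1ql2 had 1345 per kilobase and the highest of Calb1 had 1111. Tdo2 reached at most 82.9 per kilobase, and Trpc6 never fell below 139.9.

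**Figure D1:**
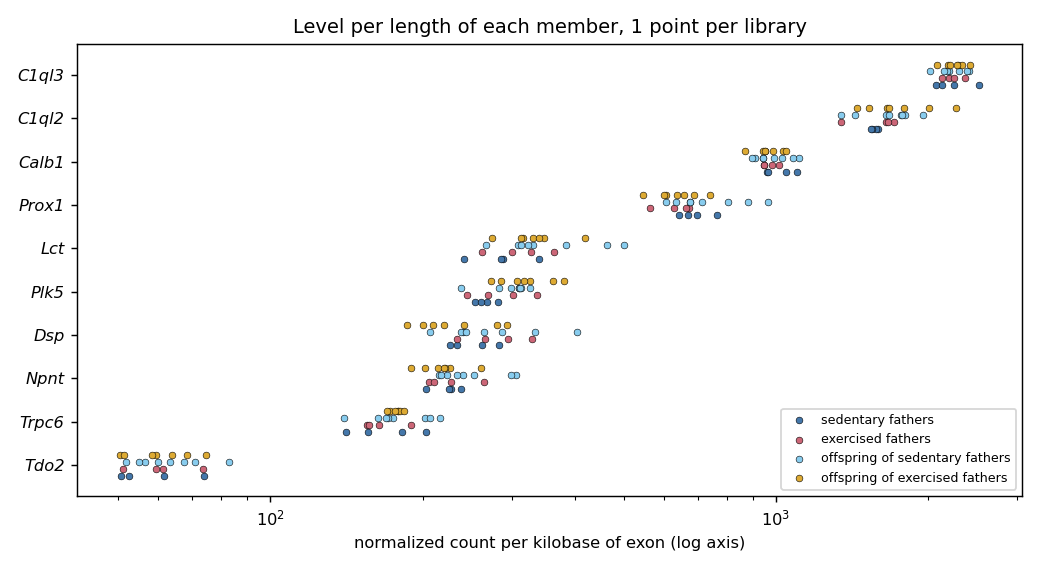
Level of each member in each of the 23 libraries, in normalized counts per kilobase of merged exon on a log axis, with colours for the 4 groups. C1ql3 (mean 2243) and C1ql2 (1669.8) lie highest and Tdo2 (61.6) lowest, with gaps above Tdo2, between Prox1 and Lct and between C1ql2 and Calb1.

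The members also differed in how far they varied between libraries. C1ql3 and Calb1 were steady, with highest-to-lowest ratios over the 23 libraries of 1.25 and 1.28. Dsp and Lct varied most, by 2.17-fold and 2.07-fold, and the other 6 members by 1.55-fold to 1.76-fold. Within groups the SD on the log2 scale was 0.09 for C1ql3 and 0.26 for Dsp, at the 22.0th and 70.4th percentile of all genes. Counting error alone gives an SD of 0.02 for C1ql3 and 0.10 for Tdo2, the least abundant member. The median within-group SD was 0.17 over the members and 0.14 over all 18377 genes.

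Genes on the other strand overlap the exons of 3 members. Prox1os shares exon bases with Prox1 and ran from 85.6 to 153 normalized counts, Gm10129 shares 499 bases with Dsp at 1.32 to 10.1, and Gm37811 shares 1547 bases with C1ql3 at 120 to 225. The library kit keeps the strand, but whether counting used it is not given in the sources used here, so reads of these pairs may be mixed. Prox1 has at least 4589.9 normalized counts in every library, Dsp at least 1800.4 and C1ql3 at least 5113, far above their partners.

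In the fathers, the treadmill groups overlapped for every one of the 10 members. Prox1 (ENSMUSG00000010175.13, GRCm38 chromosome 1, 190118035 to 190170714) had 5658, 4726, 5272 and 5581 normalized counts in exercised fathers and 6414, 5864, 5387 and 5617 in sedentary fathers. The exercised libraries lay lower on average, at 5309 ± 423 against 5821 ± 441 (SD, n = 4 each), while the ranges shared 5387 to 5658. The log2 difference of exercised minus sedentary fathers was -0.13 (SE 0.07, limma adjusted p = 0.632), the nearest of the 10 to the threshold.

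Dsp (ENSMUSG00000054889.9, chromosome 13, 38151294 to 38198577) had 3184, 2256, 2854 and 2566 normalized counts in exercised fathers and 2535, 2256, 2738 and 2189.9 in sedentary fathers. Its highest library was exercised and its lowest sedentary, with the others interleaved. The log2 difference was 0.15 (SE 0.11, limma adjusted p = 0.709).

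The enzyme Lct (ENSMUSG00000026354.8, chromosome 1, 128284756 to 128328318) had 2327, 1680.3, 1929 and 2099 normalized counts in exercised and 2177, 1850.1, 1833 and 1547 in sedentary fathers, a log2 difference of 0.12 (SE 0.11). Plk5 (ENSMUSG00000035486.14, chromosome 10, 80356459 to 80365489) had 904, 722, 655 and 809 against 754, 681, 718 and 699.7, a log2 difference of 0.11 (SE 0.09). In both genes the exercised group held the highest library, and the values interleaved.

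The synaptic organiser C1ql2 (ENSMUSG00000036907.9, chromosome 1, 120340582 to 120343174) had 3306, 2689.6, 3428 and 3327 normalized counts in exercised fathers and 3185, 3150.0, 3094 and 3084 in sedentary fathers. Of the exercised libraries 3 lay above all sedentary ones and replicate 2 lay below them all, so the log2 difference was 0.02 (SE 0.07). It was 0.10 without exercised replicate 2, with a limma adjusted p of 0.549. The related C1ql3 (ENSMUSG00000049630.6, chromosome 2, 13003457 to 13011806) had 5573, 5403, 5704 and 5993 against 6409, 5707, 5262 and 5398, with a difference of -0.0034 whose 95% interval ran from -0.14 to 0.13.

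The calcium genes and the remaining members were as close. Calb1 (ENSMUSG00000028222.2, chromosome 4, 15881264 to 15908064) averaged 4710.5 ± 155 normalized counts after exercise and 4936 ± 332 without it (SD, n = 4 fathers each), a log2 difference of -0.07 (SE 0.05). Trpc6 (ENSMUSG00000031997.9, chromosome 9, 8544142 to 8680741) averaged 843 ± 82.0 and 864 ± 139, a difference of -0.03 (SE 0.11). Both genes were highest in sedentary fathers replicate 1. The matrix gene Npnt (ENSMUSG00000040998.18, chromosome 3, 132881745 to 132950291) averaged 1142 (from 1036 to 1329) and 1125 ± 74.7, and Tdo2 (ENSMUSG00000028011.16, chromosome 3, 81957090 to 81976202) at 238 ± 35.5 and 231 ± 41.7. Their log2 differences were 0.02 (SE 0.08) and 0.05 (SE 0.14).

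With limma, 0 of the 10 members passed in the fathers at an adjusted p threshold of 0.05, and 0 had an unadjusted p under 0.05. Among all 17493 genes tested 0% passed and 8.01% (1402) had an unadjusted p under 0.05, while edgeR called 0 of all genes and DESeq2 66. The members' adjusted p ranged from 0.632 to 0.991, and edgeR and DESeq2 on the recovered reads also called 0 of them. Of the members 6 lay higher and 4 lower in exercised fathers, with a median log2 difference of 0.02 against 0.0029 over all genes. None of the 10 separated the groups without overlap, as 5% of all genes did. In the authors' deposited table for the fathers, which called 14 genes, all 10 members had an adjusted p of 0.999995.

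Of a wider set of 12 other genes enriched in granule cells, 7 were higher and 5 lower in exercised fathers, and limma called 0. The log2 differences were 0.19 for the transcription co-factor Mn1 (SE 0.06, limma adjusted p = 0.539), 0.30 for Pdzd2 (SE 0.10, adjusted p = 0.556) and -0.13 for the guidance cue Sema5a (SE 0.09, adjusted p = 0.707). Of the 12, Mn1 and Pdzd2 had an unadjusted p under 0.05, beside 8.01% of all genes and 0 of the 10 members. Markers of other tissue differed more between these groups. All 8 choroid plexus genes were higher in exercised fathers, with a median log2 difference of 1.92, and all 9 thalamic and habenular genes lower, with a median of -0.53, although limma called 0 of them, with 3 thalamic genes at an unadjusted p under 0.05. All 5 endothelial genes were lower too, with a median of -0.23 and 4 of them at an unadjusted p under 0.05. With the mean of the choroid plexus or the thalamic list as a covariate, limma called 0 of the 10 granule members, but the values moved. With the thalamic covariate the log2 difference was -0.20 for Prox1, -0.14 for Calb1 and -0.23 for Trpc6, at limma adjusted p of 0.212, 0.183 and 0.208. These 3 members then had an unadjusted p under 0.05. The share of all genes at that level in this fit is not given here, so the count has no background. With the choroid plexus covariate Prox1 was at -0.07 and no member reached an unadjusted p under 0.05.

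**Figure D2:**
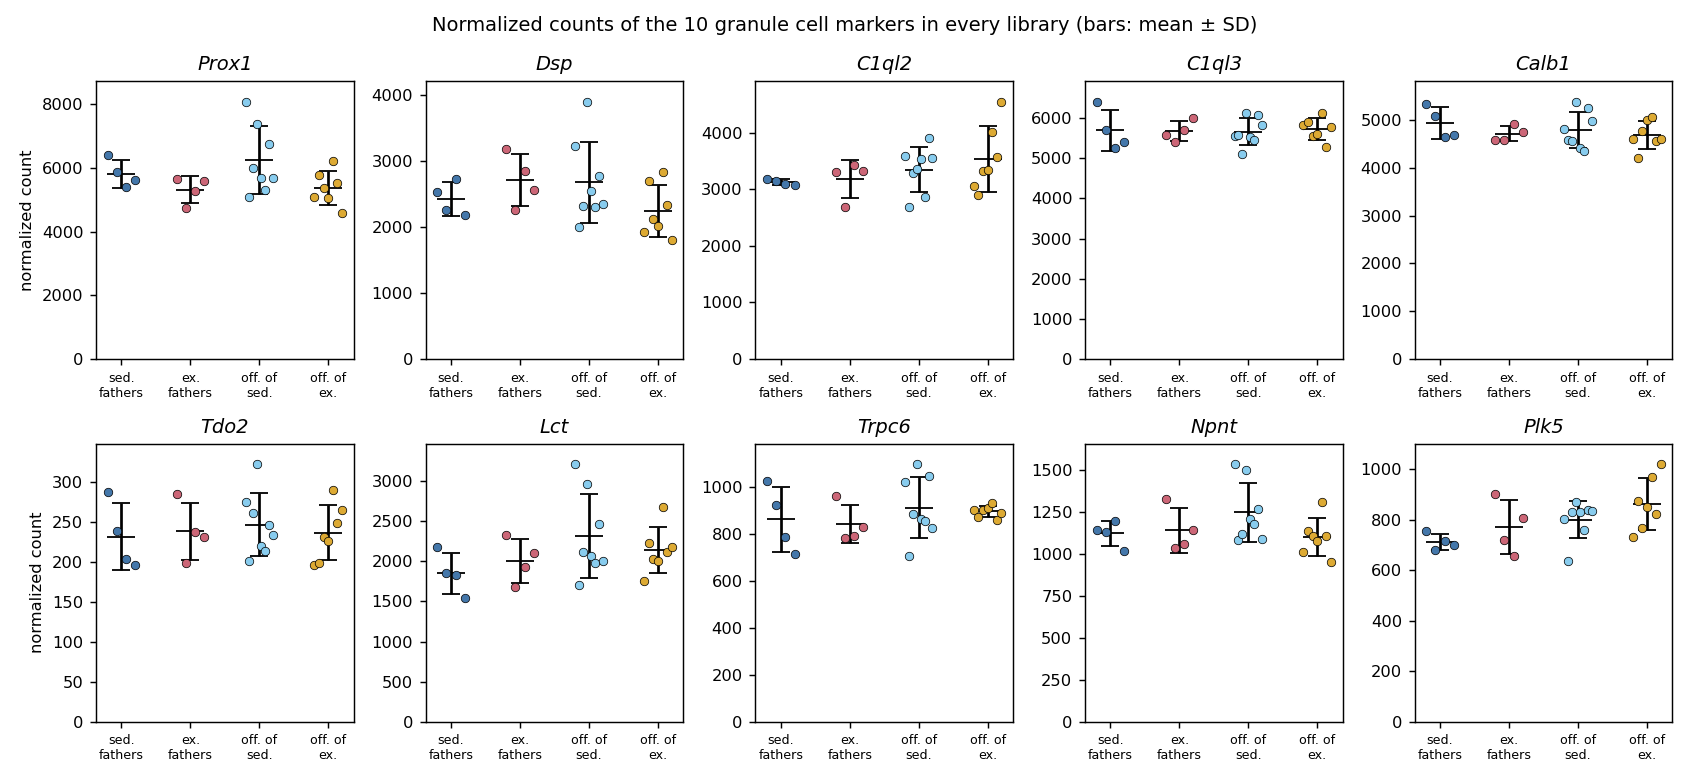
Normalized counts of the 10 members in every library by group, with bars for the mean and SD of 4 sedentary fathers (sed. fathers), 4 exercised fathers (ex. fathers), 8 offspring of sedentary fathers (off. of sed.) and 7 offspring of exercised fathers (off. of ex.). Groups overlap in every panel, and the widest spread lies in the offspring of sedentary fathers for Prox1, Dsp, Lct and Npnt.

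In the offspring, 7 of the 10 members lay lower in the group whose fathers had exercised, Dsp, Prox1 and Npnt by the most, and none passed the test. Prox1 had 5092 as the lowest, 5844 as the median and 8081 as the highest normalized count in offspring of sedentary fathers, and 4589.9, 5355 and 6212 in offspring of exercised fathers. Of the former, 3 libraries (replicates 1, 4 and 7) lay above every library of the latter, and the rest overlapped. The log2 difference was -0.21 (SE 0.09, limma adjusted p = 0.480), a ratio of 0.866 with a 95% interval from 0.757 to 0.991.

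Npnt had 1083, 1192 and 1536 normalized counts (lowest, median and highest) in offspring of sedentary fathers and 952, 1106 and 1310.3 in offspring of exercised fathers. Among offspring of sedentary fathers, replicates 1 and 4 were above all other offspring libraries. The log2 difference was -0.18 (SE 0.08, limma adjusted p = 0.504). Dsp, the member closest to Npnt across libraries, had 2001, 2454 and 3905 against 1800.4, 2125 and 2833, a log2 difference of -0.24 (SE 0.13, limma adjusted p = 0.544). Again replicates 1 and 4 were the only offspring of sedentary fathers above the range of the other group.

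The size of these differences moved with single libraries in both directions. Without replicate 1 of the offspring of sedentary fathers, the log2 difference was -0.15 for Prox1 and -0.13 for Npnt, and without replicate 4 it was -0.16 for Dsp. At the other end it was -0.25 for Prox1 without replicate 2 of that group, and -0.30 for Dsp and -0.22 for Npnt without replicate 5 of the offspring of exercised fathers. With the length and GC trend of each library removed, which was chosen as an alternative after seeing the data, it was -0.16 for Prox1, -0.17 for Npnt and -0.22 for Dsp. Averaging offspring whose title stems match, in case they are related, left 4 stems of exercised and 8 of sedentary fathers. It gave -0.23, -0.20 and -0.27 for the 3 genes, with limma adjusted p of 0.616, 0.616 and 0.628.

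The enzymes and Trpc6 differed less. Lct had 1709, 2094 and 3209 normalized counts in offspring of sedentary fathers and 1756, 2119 and 2682 in offspring of exercised fathers, a log2 difference of -0.09 (SE 0.12). Tdo2 had 201, 239 and 322 against 196, 230.3 and 289.6, a difference of -0.06 (SE 0.10). The ranges overlapped widely in both genes. Trpc6 was centred alike but spread unlike, with 914 ± 131 (SD, n = 8) in offspring of sedentary fathers and 897 ± 23.8 (n = 7) in offspring of exercised fathers.

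C1ql2, C1ql3 and Plk5 lay slightly higher in offspring of exercised fathers, and Calb1 slightly lower. C1ql2 had 2693, 3442 and 3911 normalized counts in offspring of sedentary fathers and 2897, 3346 and 4551 in offspring of exercised fathers, a log2 difference of 0.07 (SE 0.09). Plk5 had 638, 830.1 and 872 against 731, 851 and 1019.7, a difference of 0.10 (SE 0.08). In both genes replicates 5 and 7 of the offspring of exercised fathers were the 2 highest of all libraries. C1ql3 differed by 0.02 (95% interval -0.07 to 0.10) and Calb1 by -0.03 (95% interval -0.14 to 0.08), the narrowest intervals among the members.

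Over the 10 members limma called 0 in the offspring, where 0% of all 17522 genes tested passed, against 0 by edgeR and 39 by DESeq2. At an unadjusted p under 0.05 there were 2 of 10, Prox1 and Npnt, beside 9.85% of all genes in either direction and 5.48% in the lower direction. On the recovered reads edgeR and DESeq2 also called 0 of the members, with a smallest DESeq2 adjusted p of 0.311 for Prox1. The median log2 difference of the members was -0.04, with 3 higher and 7 lower, and that of all genes was -0.00091. None of the 10 separated the groups without overlap, and 0.148% of all genes did. In the authors' deposited table for the offspring, which called 11 genes, the smallest p among the members was 0.0265, for Prox1, with an adjusted p of 0.399.

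Of the 12 other granule-enriched genes, 10 lay lower and 2 higher in offspring of exercised fathers, with a median log2 difference of -0.08. The largest departures by p were Smad3, a mediator of TGF-beta signaling, at -0.11 (SE 0.04, limma adjusted p = 0.449), Pdzd2 at -0.24 (SE 0.11, adjusted p = 0.501) and the proteoglycan Gpc4 at 0.11 (SE 0.06, adjusted p = 0.530). Some lists of other cell types lay lower as well. All 6 oligodendrocyte genes lay lower with a median of -0.08, all 5 endothelial genes with a median of -0.10, and 5 of 6 astrocyte genes with a median of -0.09, while limma called 0 of them. CA2 and CA3 markers had a median of -0.08 and thalamic markers of -0.15. The medians were close to 0 for CA1 (0.0028), mossy cells (0.0072), GABAergic interneurons (-0.01), newborn granule neurons, neocortex (each -0.02) and microglia (-0.02), and 0.08 for choroid plexus. The summed thalamic level ran from 5689 to 8112 normalized counts in offspring of sedentary fathers and from 4848 to 6921 in offspring of exercised fathers. With that list as a covariate the log2 differences were -0.25 for Prox1, -0.23 for Npnt and -0.34 for Dsp, at limma adjusted p of 0.396, 0.352 and 0.371.

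**Figure D3:**
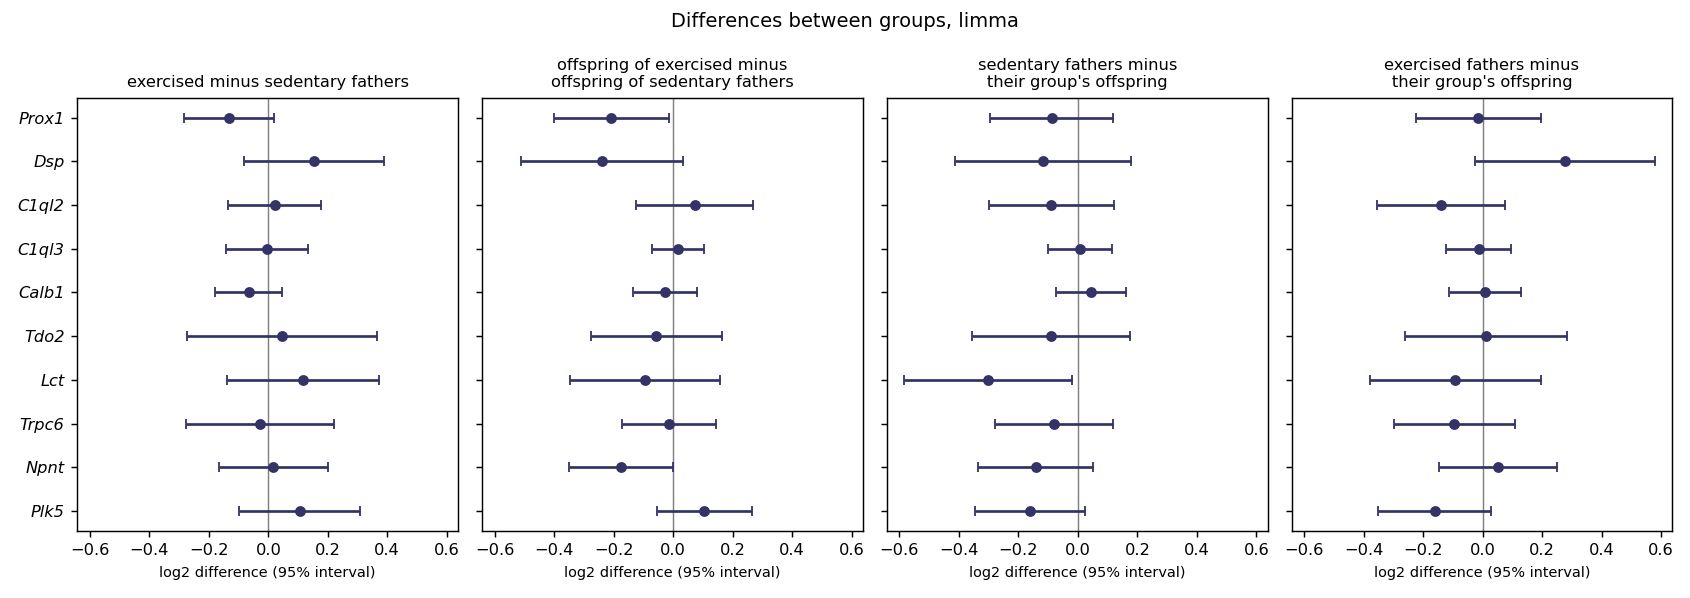
Log2 difference of each member in 4 comparisons, with points for the limma estimate and bars for its 95% interval. The intervals of Prox1 (-0.40 to -0.01) and Npnt (-0.35 to -0.0011) in the offspring and of Lct (-0.58 to -0.02) in the sedentary lineage lie below 0, and 0 of 10 members passed after adjustment in any panel.

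Fathers were also compared with the offspring of their own group. Age, generation and history change together here, so they cannot be told apart, and these comparisons use the libraries of the earlier ones again. In the exercised lineage only the fathers had treadmill sessions, so exercise cannot be told apart from generation either. Neighbouring tissue differed too. The median log2 difference of the choroid plexus genes was -0.53 in the sedentary and 1.17 in the exercised lineage, although limma called 0 of them. In the sedentary lineage Lct was 1852 ± 258 normalized counts in fathers (SD, n = 4) and 2316 ± 524 in offspring (n = 8). All 4 fathers lay between 1547 and 2177, inside or below the offspring range of 1709 to 3209. The log2 difference of fathers minus offspring was -0.30 (SE 0.14, limma adjusted p = 0.352). It was -0.12 with the thalamic list mean as a covariate (limma adjusted p = 0.915) and -0.34 with the choroid plexus list mean (adjusted p = 0.158).

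Most other members also lay lower in sedentary fathers than in their group's offspring, by small amounts. The log2 differences were -0.16 for Plk5 (SE 0.09), -0.14 for Npnt, -0.12 for Dsp, -0.09 for each of Prox1, C1ql2 and Tdo2 and -0.08 for Trpc6. Calb1 and C1ql3 lay 0.05 and 0.0074 higher. With limma 0 of 10 members passed, beside 0.299% of 18377 genes. That background of 55 genes ran from 0 without sedentary fathers replicate 4 to 135 without replicate 3 of the offspring of sedentary fathers, and it moved by over 1.5 times in 20 of the 23 fits with 1 library left out. At an unadjusted p under 0.05 there was 1 member, Lct, which lay lower, beside 12.7% of all genes in either direction and 6.71% in the lower one. None of the 10 members separated the groups without overlap, and 1.78% of all genes did. The median log2 difference was -0.09 over the members and 0.0014 over all genes.

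Markers around them moved in this comparison. Of 8 genes of newborn granule neurons 6 lay lower and 2 higher in fathers, with a median log2 difference of -0.24. At an unadjusted p under 0.05 there were 4 lower and 0 higher, beside 12.7% of all genes. Limma called 2, Sox11 at -0.52 (SE 0.09, adjusted p = 0.0176) and Sox4 at -0.31 (SE 0.05, adjusted p = 0.0176). Both are transcription factors of immature neurons, and both were lower in fathers. With each of the 23 libraries left out in turn, the Sox11 call was lost in 3 fits (sedentary fathers replicates 2, 3 and 4, limma adjusted p up to 0.0894) and the Sox4 call in 2 (replicates 2 and 4, up to 0.0605). With the thalamic list mean as a covariate both were lost, at limma adjusted p of 0.239 and 0.0632, and Sox11 also with the length and GC trend removed (0.0512). Sox11 was 868 ± 20.7 normalized counts in sedentary fathers (SD, n = 4) and 1254 ± 172 in their group's offspring (n = 8). Of the 12 other granule genes 8 lay lower, the smallest p belonging to Mn1 (-0.15, limma adjusted p = 0.226), the ciliary regulator Rfx3 (-0.21, adjusted p = 0.301) and the glutamate receptor Grm2 (-0.16, adjusted p = 0.364). All 9 thalamic and habenular genes lay higher in sedentary fathers, with a median of 0.50 and 5 of them at an unadjusted p under 0.05. The endothelial tight junction gene Cldn5 (-0.44) and the habenular receptor gene Chrnb3 (1.51) passed at a limma adjusted p of 0.0477 each. Their calls held in only 4 (Cldn5) and 5 (Chrnb3) of the 23 fits with 1 library left out. In the other fits the limma adjusted p reached 0.186 and 0.183, both without sedentary fathers replicate 3.

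In the exercised lineage Dsp stood out in size, with 3184, 2256, 2854 and 2566 normalized counts in fathers and 1800.4 to 2833 in offspring. The log2 difference was 0.28 (SE 0.15, limma adjusted p = 0.536). Plk5 differed by -0.16 (SE 0.09), C1ql2 by -0.14 (SE 0.10), Trpc6 by -0.09 (SE 0.10) and Lct by -0.09 (SE 0.14). The other 5 members had log2 differences between -0.01 and 0.05. Of the 10 members limma called 0, beside 0.0653% of all genes (12, from 0 without exercised fathers replicate 3 to 28 without replicate 5 of the offspring of exercised fathers), and 0 had an unadjusted p under 0.05, beside 10.1% of all genes. None of the 10 separated the groups, as 1.89% of all genes did.

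Of the other granule genes in this lineage, Pdzd2 differed by 0.38 (SE 0.13, limma adjusted p = 0.277), Grm2 by -0.16 (SE 0.07, adjusted p = 0.465) and Mn1 by 0.09 (SE 0.06, adjusted p = 0.617). Cldn5 was called again, at -0.57 (SE 0.10, limma adjusted p = 0.0254), and was lost in 4 of the 23 fits with 1 library left out (exercised fathers replicates 1, 3 and 4 and offspring of exercised fathers replicate 4, adjusted p up to 0.0738). Newborn granule neuron genes had 6 of 8 members lower in fathers and 0 called, with 3 lower and 1 higher at an unadjusted p under 0.05.

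Whether the exercise difference itself changed between fathers and offspring was tested as an interaction. Dsp had the largest value, 0.39 on the log2 scale (SE 0.20, limma adjusted p = 0.899), being higher in exercised fathers and lower in the offspring of exercised fathers. Lct followed at 0.21 (SE 0.20) and Npnt at 0.19 (SE 0.13), and Plk5 was at 0.00083 (SE 0.13). Limma called 0 of 10 members, beside 0% of all genes (0 by edgeR and 6 by DESeq2), and 0 had an unadjusted p under 0.05, beside 5.67%. With DESeq2 the adjusted p of Dsp was 0.904. Of the other granule genes Mn1 had an interaction of 0.24 (SE 0.08), Pdzd2 of 0.54 (SE 0.18) and Smad3 of 0.10 (SE 0.07), with limma adjusted p of 0.775, 0.775 and 0.920.

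The clearest pattern among the members was that they tended to rise and fall together over the pooled libraries. No r was computed within a single group. From replicate 1 to 7 of the offspring of exercised fathers, 2, 6, 4, 2, 10, 5 and 5 members lay above the group mean. After group means were removed, all 45 pairs of members correlated positively over the 23 libraries, with a median Pearson r of 0.54. Dsp and Npnt were the closest pair at 0.90, Prox1 and Lct followed at 0.89, and 8 pairs reached 0.8 or more. The lowest pair was Calb1 with Plk5 at 0.20. Within fathers the median was 0.63, with 43 of 45 pairs above 0, and within offspring it was 0.52, with all 45 above 0. The closest pair in fathers was Tdo2 and Trpc6 at 0.93, with Dsp and Npnt at 0.79. In offspring it was Dsp and Npnt, at 0.93. These correlations are descriptions without a p, since the libraries share depth, composition and dissection.

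Against the mean of the other 9 members, Lct had the highest correlation (r = 0.94, Spearman's rho = 0.92), above every other gene tested against the same mean. Tdo2 (r = 0.84, rho = 0.81), Trpc6 (0.83, 0.76) and Prox1 (0.81, 0.75) came next, with percentiles from 99.8 to 99.9 among the other genes. Npnt (0.75, 0.61) and Dsp (0.74, 0.65) followed. Calb1 (0.60, 0.54), Plk5 (0.58, 0.61), C1ql3 (0.52, 0.50) and C1ql2 (0.52, 0.55) were the loosest, with C1ql2 at the 95.2nd percentile. Leaving out the 2 libraries farthest from the median moved these r to between 0.44 for Calb1 and 0.92 for Lct.

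**Figure D4:**
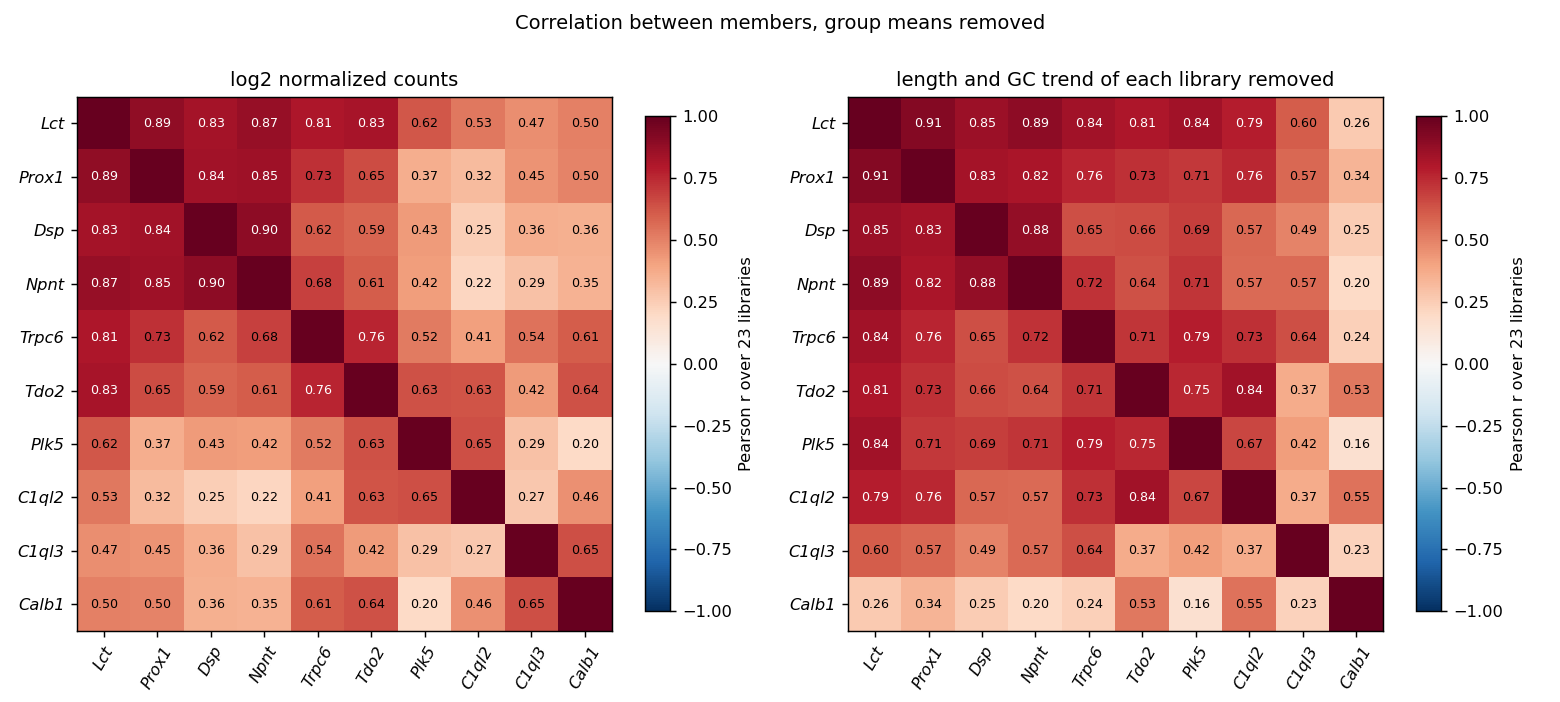
Pearson r of each pair of members over 23 libraries after group means were removed, from log2 normalized counts (left) and with the length and GC trend of each library also removed (right). All 45 pairs lie above 0 on both sides, with a median of 0.54 on the left and 0.67 on the right, and Calb1 has the palest row on the right.

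A few libraries marked the ends of this joint movement. All 10 members lay above their group mean in sedentary fathers replicate 1, in the offspring of sedentary fathers replicates 4 and 7 and in replicate 5 of the offspring of exercised fathers. In sedentary fathers replicate 4, exercised fathers replicate 2 and, in the offspring of sedentary fathers, replicates 2 and 6, 0 of the 10 did. Replicate 4 of the offspring of sedentary fathers had 3905 normalized counts of Dsp and 322 of Tdo2, the highest of the 23 libraries for each, while replicate 2 of that group had 2001 and 201.

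C1ql2 and Plk5 departed from the other members in some libraries. Replicate 7 of the offspring of exercised fathers had the highest C1ql2 (4551) and Plk5 (1019.7 normalized counts) of all 23 libraries, and the lowest Prox1 (4589.9), Dsp (1800.4) and Npnt (952). Its slope of expression on transcript length was also the lowest of the 23, and its slope on GC content was among the 2 highest. The exons of C1ql2 and Plk5 total 2000 and 2678 bases, and those of Prox1 and Dsp 8390 and 9659. Over the libraries C1ql2 correlated with that slope at r = -0.53 and Plk5 at -0.37, while Prox1 did at 0.45, Npnt at 0.41, Dsp at 0.35 and Lct (6406 bases) at 0.22. C1ql3, with 2535 bases, did at only 0.05. With the GC slope Prox1 correlated at -0.52, Npnt at -0.45 and Dsp at -0.36, and Trpc6 most strongly at -0.59. The part of either slope in these values was not tested.

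With the length and GC trend of each library removed, all 45 pairs stayed above 0 and their median r was 0.67. Prox1 and Lct were then the closest pair at 0.91, and Dsp and Npnt were at 0.88. The correlation with the other members went from 0.52 to 0.80 for C1ql2 and from 0.58 to 0.78 for Plk5. For Calb1 it went from 0.60 to 0.36, and for C1ql3 it was 0.57. The mean of the 10 members itself correlated with the length slope at 0.09, with the GC slope at -0.37, with recovered reads at 0.46 and with the share of the 10 most abundant genes at -0.01.

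Genes of other hippocampal cells were set beside the members in the same libraries. The mean of the 12 other granule genes followed the members most closely, at r = 0.80 (rho = 0.76), and all 12 genes correlated positively, from Mn1 at 0.12 to Stxbp6 at 0.88. In fathers alone r was 0.96 and in offspring 0.76. Markers of CA2 and CA3 pyramidal cells stood at 0.61 over all libraries, but at -0.42 in fathers and 0.79 in offspring. CA1 markers stood at 0.30, newborn granule neurons at 0.24, mossy cells at 0.22, microglia at 0.44 and oligodendrocytes at 0.40. Astrocytes stood at -0.03, GABAergic interneurons at -0.21, neocortex at -0.33 and endothelial cells at -0.38. Several of these differed in sign between generations. Neocortex stood at 0.53 in fathers and -0.55 in offspring, microglia at -0.15 and 0.56, and mossy cells at -0.02 and 0.31. With the length and GC trend removed, r was 0.94 for the other granule genes, 0.77 for CA2 and CA3, 0.61 for microglia and 0.58 for CA1, and it changed sign for GABAergic interneurons (0.11) and astrocytes (0.15).

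Tissue that borders the hippocampus went the other way. The thalamic and habenular list correlated with the members at -0.50 and the choroid plexus list at -0.51, and in both lists 0 genes had a positive r. Sedentary fathers replicate 4, with the highest thalamic sum of all libraries, had 0 of 10 members above its group mean, and replicate 1, with the lowest sum of its group, had 10 of 10. In SD units after group means were removed, their thalamic list means were 1.88 and -2.28. In the other libraries with 0 of 10 it was -0.44 (exercised fathers replicate 2), 0.17 and 0.03 (offspring of sedentary fathers replicates 2 and 6). In the others with 10 of 10 it was -0.32 and -0.36 (offspring of sedentary fathers replicates 4 and 7) and -0.51 (offspring of exercised fathers replicate 5). The part of dissection in the members' joint movement was not tested.

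**Figure D5:**
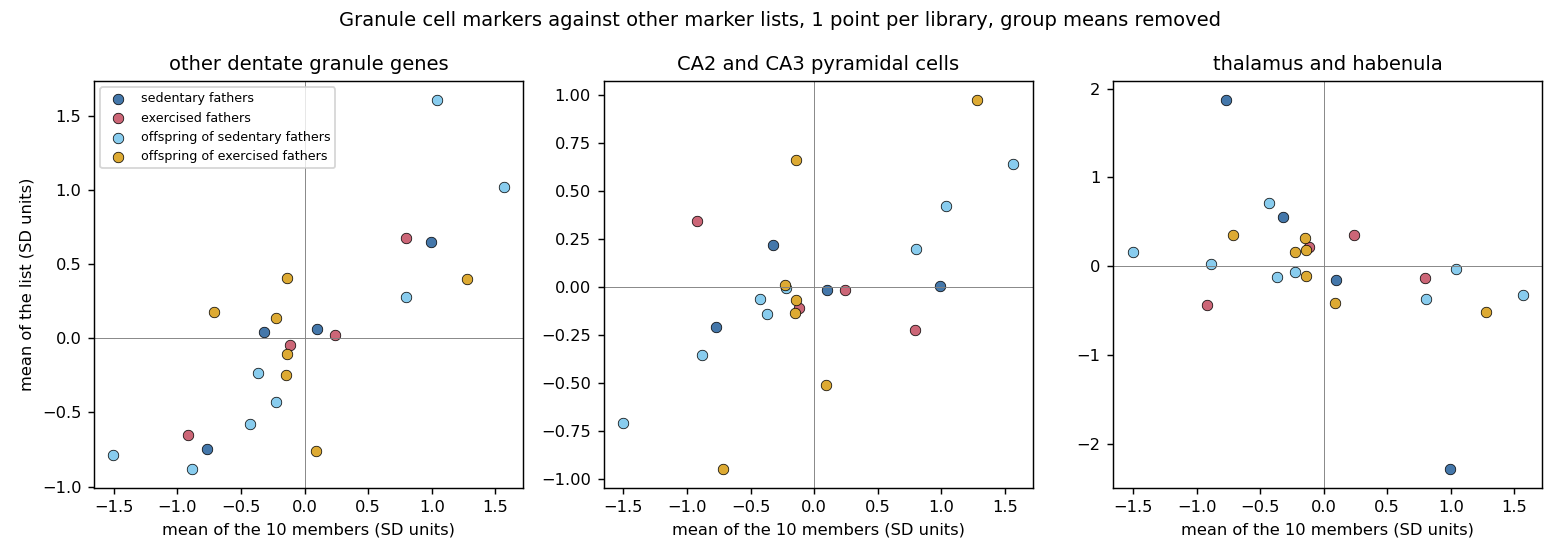
Mean of 3 marker lists against the mean of the 10 members, in SD units after group means were removed, with 1 point per library and colours for the 4 groups. The other granule genes rise with the members (r = 0.80), the CA2 and CA3 markers do so in offspring (0.79) and not in fathers (-0.42), and the thalamic and habenular list falls (-0.50).

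Over all 18367 other genes tested, the correlation with the mean of the members had a median of 0.01 and a 5th to 95th percentile of -0.49 to 0.50, and 52 genes reached 0.8. The 10 genes most like the members over the 23 libraries were Rbfox1, a splicing regulator of neurons (r = 0.93), Plekha2 (0.93), the sodium-calcium exchanger Slc8a2 (0.91), the calcineurin subunit Ppp3ca (0.91) and Orai2, a calcium channel subunit (0.89), then Kbtbd11 (0.89), the kinase subunit Camk2b (0.88), Stxbp6 (0.88), the G protein subunit Gng7 (0.88) and the transcription factor Elk1 (0.87). The 5 most opposite were the ubiquitin ligase Lnx1 (-0.92), C77080 (-0.82), Bcl7c (-0.80), the connexin Gjc1 (-0.80) and Tagap1 (-0.79). Without the 2 libraries farthest from the median, r was 0.89 for Rbfox1 and -0.89 for Lnx1.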

How the data were processed

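RNA of male mouse hippocampus was sequenced on a HiSeq2000 from strand-specific poly(A) libraries, per the labels' protocols. The build GRCm38 and the tools DESeq2 1.10, RSEM 1.2.28 and STAR 2.5.2a come from the submitters' processing notes, which give here no role for each. The authors deposited 1 table of normalized counts per generation, a signal whose values show a gene's read count over the size factor of its library. At least 99.99% of values in every library came out within 0.1 of whole reads, and median ratios of 1.0026 to 1.0061 put both tables on 1 scale. The authors also deposited log2 fold changes, p-values and adjusted p-values of their own comparisons, per the file headers. Since PCR copies are counted, read numbers overstate precision.

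Here, log2(normalized count + 1) was fitted across all genes with at least 10 normalized counts in 4 fathers, 7 offspring or 4 of all libraries, using limma 3.58.1 in R 4.3.3 with a mean-variance trend and Benjamini-Hochberg adjustment (two-sided, threshold 0.05). Fathers and offspring were fitted apart, and generation and interaction over 23 libraries. This scale understates changes of low genes. edgeR 4.0.16 and DESeq2 1.42.0 on recovered reads were alternatives, and the steps were tested on simulated data. All 61 pairs of libraries within a group differed by more than sampling noise (chi-square per degree of freedom at least 5.99). Among offspring of exercised fathers, the pairs that share a title stem were the most alike. Replicates 1 and 2 had 6.22, 3 and 4 had 12.8, and 5 and 6 had 6.82, against at least 22.5 for the other pairs of that group. Pairs with different stems could be as alike. Among offspring of sedentary fathers, where every library has its own stem, replicates 2 and 6 had 5.99 and 2 and 5 had 8.52. Replicates 1 and 8 of that group had 54.9. Correlations use log2 values with group means removed, and those with lists use the mean of standardized genes. Slopes on length and GC content were fitted per library over all genes.

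Lengths and coordinates come from GENCODE M21, which held 51633 of 51912 identifiers. The members, marker lists and alternatives were chosen with earlier results of these data known. Named besides the members were the 10 genes with the highest and the 5 with the lowest r, list genes past the threshold, and the 3 other granule genes with the smallest p in each comparison. In 3 libraries (exercised fathers replicate 4, offspring of sedentary fathers replicates 7 and 8) the barcode names start with AD21, unlike the others, and fits without them were run.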

Additional observations from a re-analysis of the deposited data

Results flagged for a closer look

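Of 40 sets of values (10 members in 4 groups), 1 held a library far from the rest of its group. Exercised fathers replicate 2 had 2689.6 normalized counts of C1ql2, and the other 3 exercised fathers had 3306 to 3428. Chance alone marks about 1 in 20 such groups.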

How the results depend on the processing

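Under all alternatives run (another pseudocount, low-value filter, test, scaling, covariate, or a library left out), 0 of 10 members passed in each of the 5 comparisons. The smallest adjusted p was 0.183 in the fathers (Calb1, limma with the thalamic covariate), 0.311 in the offspring (Prox1, DESeq2), 0.158 in the sedentary lineage (Lct, limma with the choroid plexus covariate), 0.367 in the exercised lineage (Dsp, limma without replicate 5 of the offspring of exercised fathers) and 0.668 for the interaction (Dsp, limma with the choroid plexus covariate). Over all genes DESeq2 called 66 in the fathers, 39 in the offspring, 357 and 118 in the sedentary and exercised lineages and 6 for the interaction, and edgeR called 84 in the sedentary lineage. With limma the 55 genes of the sedentary lineage became 0 with the thalamic covariate, 192 with the choroid plexus covariate, 32 with no filter, 8 without barcode series AD21, 16 with title stems averaged and 6 with the length and GC trend removed. The 12 of the exercised lineage became 6 with the thalamic covariate, 35 with the trend removed and 3 with no filter or with title stems averaged. Members at an unadjusted p under 0.05 numbered 0 to 3 in the fathers and in the offspring over the alternatives that kept every library (0 in the offspring with the trend removed or with title stems averaged). Over all genes that number ran from 918 to 1788 in the fathers with 1 library left out, and it is not given here for the other alternatives.

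Small log2 differences changed sign, and the cause was not tested. In the fathers, C1ql3 was 0.0010 with TMM scaling. With the thalamic covariate Tdo2 was -0.16, Lct -0.041 and Npnt -0.028, and with the choroid plexus covariate C1ql3 was 0.079, Calb1 0.0038 and Trpc6 0.090. C1ql2 was -0.0019 without barcode series AD21 and -0.063 with the length and GC trend removed, where Calb1 was 0.046. In the offspring, C1ql2 was -0.0097 and C1ql3 -0.031 with the thalamic covariate, Calb1 was 0.0046 without AD21, and C1ql2 was -0.016, C1ql3 -0.026 and Trpc6 0.0094 with the trend removed. In the sedentary lineage, Tdo2 and Trpc6 were both 0.11 with the thalamic covariate and C1ql3 was -0.0046 with the choroid plexus covariate. In the exercised lineage, Calb1 was -0.0013 by edgeR and -0.00089 with TMM scaling, and Prox1 was 0.026 and C1ql3 0.0080 with the choroid plexus covariate. C1ql3 was 0.011 with the trend removed, and Prox1 was 0.012 and Tdo2 -0.013 with title stems averaged. For the interaction, Plk5 was -0.0033 with TMM scaling, -0.059 with the thalamic covariate, -0.048 without AD21 and -0.034 with stems averaged. Tdo2 was -0.080 with the thalamic covariate, C1ql3 0.013, Calb1 0.0083 and Trpc6 0.074 with the choroid plexus covariate, and C1ql3 0.0084 and Calb1 0.070 with the trend removed.

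With 1 library left out, these log2 differences spanned 0. In the fathers C1ql2 ran from -0.016 to 0.10, C1ql3 from -0.040 to 0.055, Tdo2 from -0.045 to 0.15, Trpc6 from -0.11 to 0.061 and Npnt from -0.058 to 0.061. In the offspring C1ql3 ran from -0.0033 to 0.037, Tdo2 from -0.11 to 0.00068 and Trpc6 from -0.064 to 0.026. In the sedentary lineage C1ql3 ran from -0.051 to 0.044 and Trpc6 from -0.17 to 0.0047. In the exercised lineage Prox1 ran from -0.051 to 0.040, C1ql3 from -0.040 to 0.0095, Calb1 from -0.018 to 0.027, Tdo2 from -0.080 to 0.093 and Npnt from -0.024 to 0.10. For the interaction C1ql2 ran from -0.10 to 0.028, C1ql3 from -0.057 to 0.038, Calb1 from -0.065 to 0.00094, Trpc6 from -0.10 to 0.074 and Plk5 from -0.078 to 0.076. The members' median in the fathers ran from -0.07 with the thalamic covariate to 0.08 with the choroid plexus covariate.

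The correlation of the members with the other granule genes, 0.80 over all libraries, was 0.96 in fathers only and 0.94 with the trend removed, which also raised CA1 from 0.30 to 0.58 and microglia from 0.44 to 0.61. No paired analysis was possible because the labels give no replicate numbers that groups share. With 4 fathers a group, the standard errors of 0.05 to 0.14 on the log2 scale set the smallest difference of a member that could be seen.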
